A study of Mus musculus with 8 samples.

Results

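Described here are the insulin receptor, its substrates, and the PI3-kinase and AKT enzymes behind them. The FOXO transcription factors that AKT controls and the AKT-binding pseudokinase Trib3 were described with them. The livers were of ovariectomized (OVX) mice fed with a high fat diet (HFD) or with HFD holding freeze-dried white button mushroom powder (HFD+WBM). The powder brought its own protein, carbohydrate and fat, the HFD+WBM diet held less corn starch, and food was matched by weight. The 10 genes were Insr, Irs1, Irs2, Pik3r1, Pik3ca, Akt1, Akt2, Foxo1, Foxo3 and Trib3. Each was read from the brightest probe set that names that gene alone, and all 10 were among the 19938 genes measured. The list was chosen by the role of its genes and by the diet difference of Irs2, measured on these same arrays and known to be large, so the diet differences of the 10 genes are given below as a description, with no test. All 8 mice were female C57B1/6J, ovariectomized at 7 weeks of age, and 4 were fed with HFD and 4 with HFD+WBM for 3 months. The diets were pair-fed and the mice were fasted for some hours before the livers were taken. OVX mice make estrogen only outside the ovaries, and no sham-operated mouse has an array here. RNA of each liver went on its own single-colour array (Affymetrix Mouse Gene 1.0 ST), and all values are the deposited log2 values of probe sets.

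Insulin binds its receptor, a tyrosine kinase, which phosphorylates the substrate proteins IRS1 and IRS2. These recruit PI3-kinase, whose lipid product brings AKT to the membrane, and AKT in turn phosphorylates FOXO factors and keeps them out of the nucleus. In liver, nuclear FOXO1 raises genes of the fasted state such as Igfbp1 and G6pc, and Irs2 and Insr are themselves FOXO1 targets, so that the transcripts of both are known to be higher when insulin action is low.

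The Irs2 and Igfbp1 promoters hold an insulin response element, the letters through which FOXO factors act on these genes. The 250 bases before the transcription start of the 4 genes below are shown because all 4 hold its letters CAAAACA or, on the other strand, TGTTTTG. Irs2 and Irs1 stand for the substrates. Of the FOXO1 targets listed here, Igfbp1 stands for the one whose values lay closest to those of Irs2 over the 8 arrays, and G6pc for one that did not follow it. Capitals mark CAAAACA or TGTTTTG and the E-box CACGTG, the sequence bound by factors such as TFE3, which acts on Irs2. The sequences are from RefSeq (GRCm38.p6), written 5′ to 3′ on the strand of the gene.
Irs2, chr8:11008930-11009179, minus strand: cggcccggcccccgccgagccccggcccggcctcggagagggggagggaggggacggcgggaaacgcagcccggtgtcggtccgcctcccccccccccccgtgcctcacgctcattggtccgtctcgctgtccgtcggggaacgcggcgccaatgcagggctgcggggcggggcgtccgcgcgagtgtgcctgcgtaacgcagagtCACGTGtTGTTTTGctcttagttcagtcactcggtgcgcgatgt
Irs1, chr1:82291440-82291689, minus strand: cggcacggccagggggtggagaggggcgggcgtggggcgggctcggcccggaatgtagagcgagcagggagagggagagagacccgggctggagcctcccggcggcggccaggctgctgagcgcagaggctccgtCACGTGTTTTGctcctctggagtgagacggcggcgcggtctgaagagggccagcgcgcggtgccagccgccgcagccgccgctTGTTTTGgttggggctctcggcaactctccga
Igfbp1, chr11:7197537-7197786, plus strand: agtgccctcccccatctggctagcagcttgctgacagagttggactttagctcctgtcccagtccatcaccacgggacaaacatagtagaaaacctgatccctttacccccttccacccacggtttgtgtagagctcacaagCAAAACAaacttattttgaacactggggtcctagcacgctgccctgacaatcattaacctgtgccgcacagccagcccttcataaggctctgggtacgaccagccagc
G6pc, chr11:101367466-101367715, plus strand: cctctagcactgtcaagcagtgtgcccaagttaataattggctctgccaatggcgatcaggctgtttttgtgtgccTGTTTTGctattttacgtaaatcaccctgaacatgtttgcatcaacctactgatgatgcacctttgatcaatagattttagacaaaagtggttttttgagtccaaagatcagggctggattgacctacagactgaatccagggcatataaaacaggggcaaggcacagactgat
In Irs2 the E-box ended 39 bases before the start and TGTTTTG began 37 bases before it, with 1 base between them. In Irs1 the E-box and the first TGTTTTG overlapped, and a second TGTTTTG lay 32 to 26 bases before the start. The letters CAAAACA were in 1827 of 32851 promoter windows of this length (5.56%) on either strand, CACGTG in 1978 (6.02%), and GTAAACA, the other FOXO sequence searched, in 1040 (3.17%). Counted by gene, with any window of a gene, the shares were 6.38%, 6.86% and 3.54% in the same order. Of the 9 genes of the 10 with a window in the table, Irs1 and Irs2 held both CAAAACA and CACGTG, and Akt1 held GTAAACA. Of 17 other FOXO1 targets with a window, CAAAACA was in those of Ccng2, G6pc and Igfbp1, GTAAACA in that of Selenop and CACGTG in that of Bcl6. These are matches of letters and no measure of binding.

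One array stood apart: over all genes, HFD replicate 3 differed from the mean of the rest with an SD of 0.68 (log2), and the other 7 arrays with an SD of 0.38 to 0.50. Hepatocyte markers were among the brightest genes in every liver, with a mean log2 value of 6 markers of 13.29 to 13.53 in the HFD mice and 13.47 to 13.55 in the HFD+WBM mice, and none of the 6 passed p under 0.05. Of 10 macrophage and Kupffer cell markers, 9 were lower in the HFD+WBM livers at an unadjusted limma p under 0.05, as were 6.90% of all genes. The summed linear level of the 10 was 7472 to 10794 in the HFD mice and 5163 to 7409 in the HFD+WBM mice. Of 6 endothelial markers 2, and of 6 stellate cell markers 3, were lower by the same measure, and no marker of cholangiocytes, lymphocytes or adipocytes passed. In whole liver, fewer cells of a type and less RNA per cell cannot be told apart, and the part of these markers in the results below was not tested.

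Of the 10 genes, 3 (Irs2, Insr and Foxo1) had all HFD+WBM mice above all HFD mice, as did 3.21% of all genes, and none had them all below, as did 5.02% of all genes. Irs2 alone differed by at least 2-fold, as did 0.677% of all genes in the upward direction. The median log2 fold change of the 10 genes was 0.27, and it was 0.01 over all genes. The genes were chosen with this comparison known, so nothing is read from these counts.

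**Figure D1:**
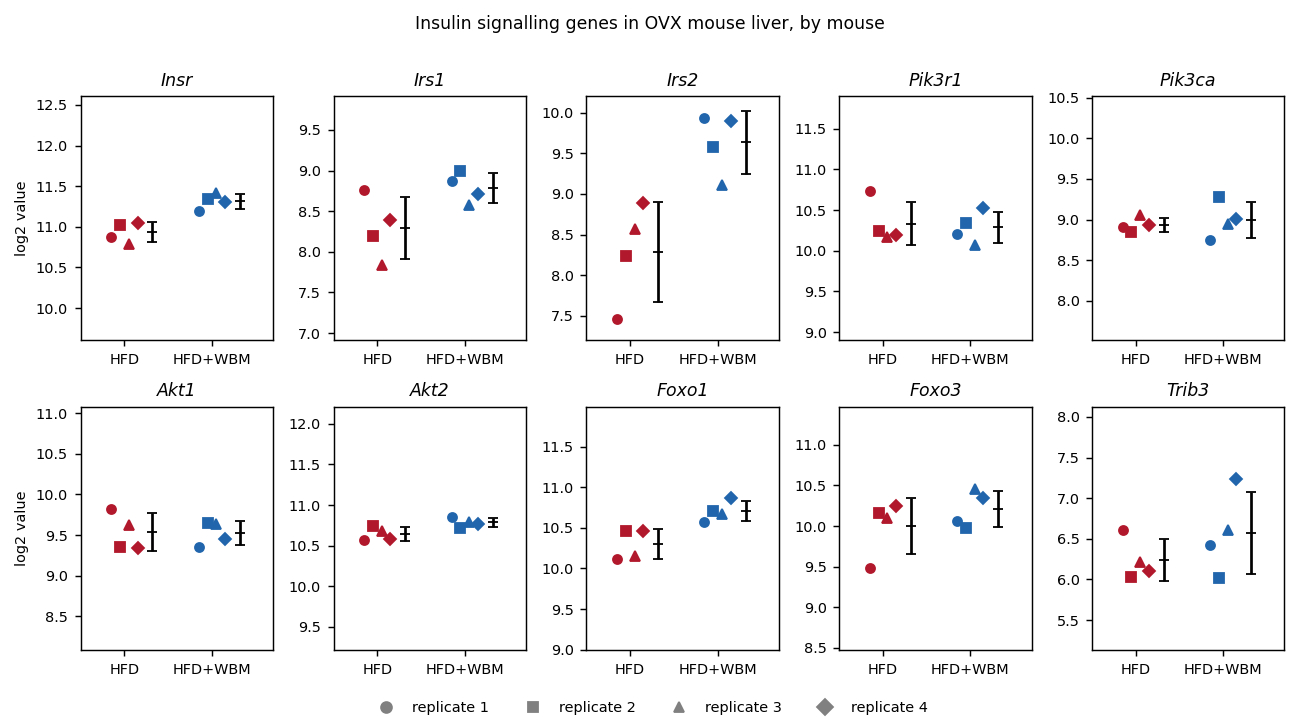
Log2 value of each of the 10 genes by mouse (red for HFD, blue for HFD+WBM, 1 marker shape per replicate number), with bars for mean ± SD beside the points (n = 4); every panel spans 3 log2 units. The blue points lie above all red points for Insr, Irs2 and Foxo1 and among them for the other 7 genes.

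The insulin receptor gene Insr was 10.87, 11.02, 10.79 and 11.05 (log2 value) in HFD replicates 1 to 4 and 11.19, 11.34, 11.42 and 11.30 in HFD+WBM replicates 1 to 4. The groups did not overlap, and the gap between the highest HFD mouse and the lowest HFD+WBM mouse was small. The means were 10.93 ± 0.12 and 11.31 ± 0.09 (SD, n = 4 each), and the log2 fold change was 0.38, with a standard error of 0.14 from limma. The second probe set of Insr gave 0.37.

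Irs2, the substrate whose transcript moves most with feeding and fasting in liver, was 7.46, 8.23, 8.57 and 8.89 (log2 value) in HFD replicates 1 to 4. It was 9.94, 9.58, 9.11 and 9.90 in HFD+WBM replicates 1 to 4. HFD replicate 1 was the lowest of all 8 mice and HFD+WBM replicate 3 the lowest of its diet, still above every HFD mouse. The means were 8.29 ± 0.61 and 9.63 ± 0.38 (SD, n = 4 each), 2.54-fold higher with HFD+WBM, or 1.35 on the log2 scale with a standard error of 0.31, which put Irs2 at rank 54 of 19938 genes ordered from the largest rise. The log2 change was 1.07 without HFD replicate 1 and 1.44 without HFD replicate 3.

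Irs1, the substrate with the flatter response to fasting, was 8.76, 8.19, 7.84 and 8.39 (log2 value) in HFD replicates 1 to 4 and 8.87, 8.99, 8.57 and 8.71 in HFD+WBM replicates 1 to 4. HFD replicate 1 was above 2 of the HFD+WBM mice, so the groups overlapped. The log2 fold change was 0.49 (standard error 0.21). A second, dimmer probe set of Irs1 (mean log2 value 4.93) gave -0.23, and the mean of both gave 0.13, so the probe sets disagree in direction. In HFD replicate 1 the values of the 2 substrates were far apart in rank, with Irs1 the highest of the HFD mice and Irs2 the lowest.

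The PI3-kinase and AKT genes lay close together in the 2 diets. Pik3r1, the regulatory subunit, was 10.17 to 10.73 (log2 value) in the HFD mice and 10.07 to 10.53 in the HFD+WBM mice, with a log2 fold change of -0.05 (standard error 0.18). Pik3ca, the catalytic subunit, was 8.85 to 9.05 and 8.75 to 9.28, with a log2 fold change of 0.06 (standard error 0.15). Akt1 was 9.34 to 9.82 and 9.35 to 9.65, and its log2 fold change of -0.01 was the smallest of the 10. Akt2, the main AKT form of insulin action on glucose, was 10.57 to 10.75 and 10.72 to 10.86 by its brighter probe set. These values overlapped in 1 mouse of each diet, with a log2 fold change of 0.14 (standard error 0.13). Among the members, probe set numbers run by chromosome. That of this probe set lies between Foxo3 (chromosome 10) and Akt1 (chromosome 12), while Akt2 is on chromosome 7. Whether this probe set measures Akt2 was not tested. The other Akt2 probe set (mean log2 value 9.83) gave 0.04.

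Foxo1 was 10.12, 10.46, 10.16 and 10.46 (log2 value) in HFD replicates 1 to 4 and 10.58, 10.71, 10.67 and 10.87 in HFD+WBM replicates 1 to 4, so that all HFD+WBM mice lay above all HFD mice. The means were 10.30 ± 0.19 and 10.71 ± 0.12 (SD, n = 4 each), and the log2 fold change was 0.41 (standard error 0.15) with all mice and 0.36 without HFD replicate 3. Foxo3, a related factor, was 9.49, 10.16, 10.10 and 10.25 in the HFD mice and 10.06, 9.98, 10.45 and 10.35 in the HFD+WBM mice. HFD replicate 1 was the low mouse, and without it the log2 fold change went from 0.21 (standard error 0.20) to 0.04. Trib3, a pseudokinase induced by stress through ATF4 and CHOP, was 6.03 to 6.61 and 6.02 to 7.23, with HFD+WBM replicate 4 above the rest and a log2 fold change of 0.33 (standard error 0.26). It was 0.11 without that mouse and 0.51 without HFD+WBM replicate 2. Its mean level lay below the median of all genes, 7.27, where changes are less certain.

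Within the diets the 10 genes did not move together. Each value was taken as its deviation from the mean of its diet, which leaves 8 deviations a gene on the same 8 arrays. Over the 45 pairs the median Pearson's r was -0.02, and 20 pairs were above 0. Akt2 entered these pairs by its brighter probe set. The highest was that of Insr with Foxo1 (r = 0.73) and the lowest that of Irs2 with Akt1 (r = -0.76). Irs2 had r = -0.05 with Insr, r = -0.37 with Irs1 and r = 0.45 with Foxo1, which are descriptions over 8 mice.

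Of 44 other measured genes of the insulin pathway, an unadjusted p under 0.05 from limma was reached by 3 that were higher and 4 that were lower with HFD+WBM, while 37 did not reach it. This is 15.9% of the list against 11.7% of all genes (4.85% higher and 6.90% lower), and the median log2 fold change was 0.06. With quantile normalization the split was 6 higher and 3 lower. The shares of all genes given are those of the main fit, and none stands beside the counts of other settings. The count was 3 when HFD+WBM replicate 3 was left out, and 4 when replicate 2 of either diet or HFD+WBM replicate 4 was. None of the 44, and none of all genes, had an adjusted p under 0.05 from limma, while 2341 of all genes passed before adjustment. Other settings gave some adjusted calls: limma with an intensity trend in its prior variance called 139 of all genes and 1 of the 44, and an offset of 64 before the log called 80 and the same 1, which was Grb14. The same model without moderated variances gave 11 genes of the 44 before adjustment and 0 of all genes after Benjamini-Hochberg. Beside these counts, macrophage markers were lower with HFD+WBM as given above.

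**Figure D2:**
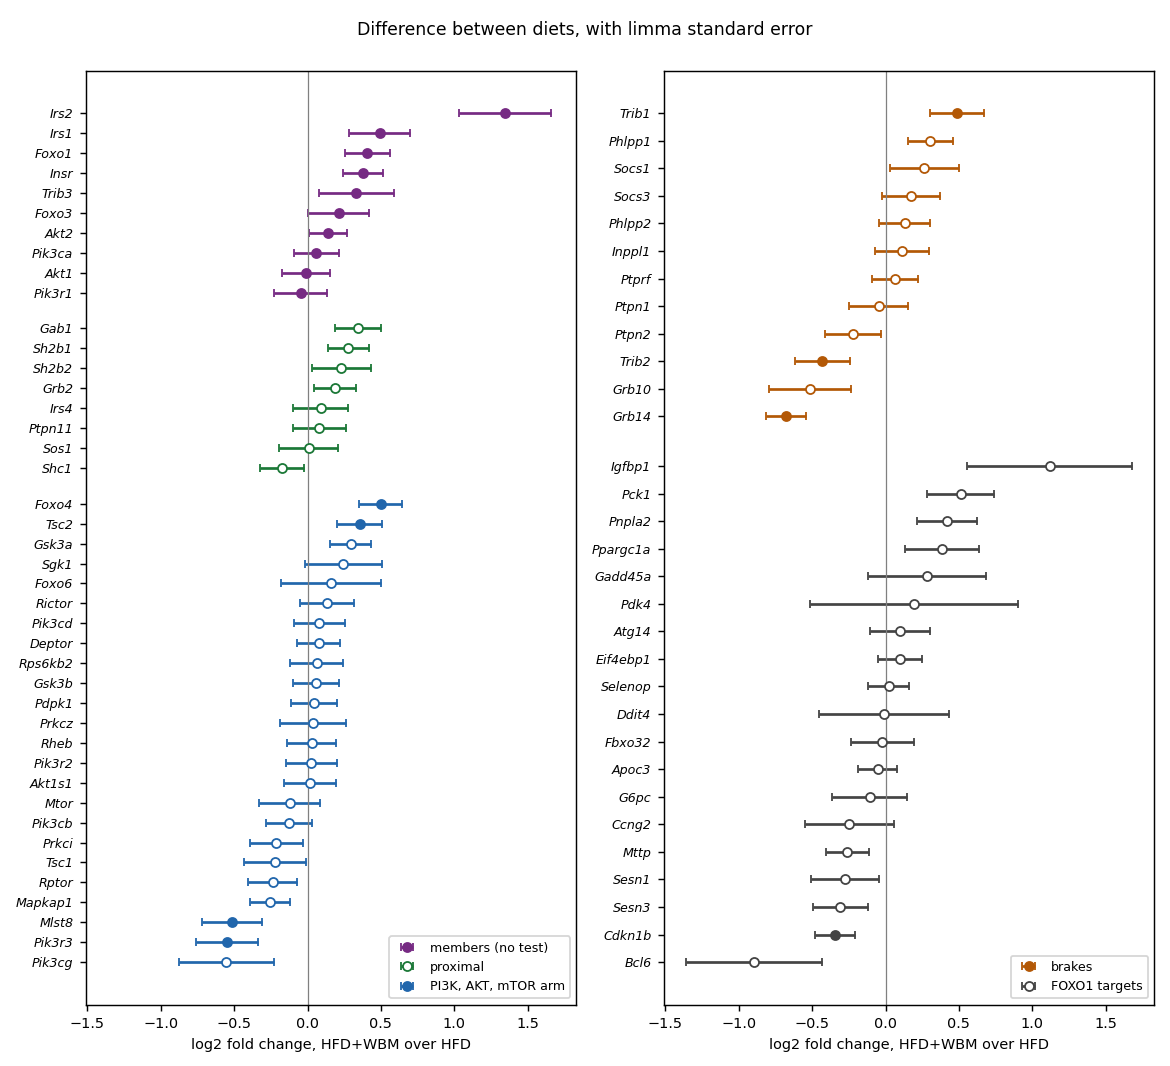
Diet difference (x axis, log2 of HFD+WBM over HFD, 4 mice each) of single genes, with bars for the limma standard error, ordered by size within each list; filled points of the lists other than the 10 members have p under 0.05 before adjustment. Irs2 is the highest of the members, Grb14 the lowest of the brakes, and the FOXO1 targets lie on both sides of 0.

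Among 12 measured genes listed as brakes of the pathway, Grb14 stood out. It encodes an adaptor that binds the activated insulin receptor and inhibits its kinase. It was 9.21, 9.22, 9.38 and 9.31 (log2 value) in HFD replicates 1 to 4 and 8.69, 8.44, 8.58 and 8.70 in HFD+WBM replicates 1 to 4. The mice of each diet lay close together, and every HFD+WBM mouse was below every HFD mouse. The means were 9.28 ± 0.08 and 8.60 ± 0.12 (SD, n = 4 each), 1.60-fold lower with HFD+WBM, with a log2 fold change of -0.68 and its standard error of 0.14. Limma gave p = 6.1e-04 before adjustment and an adjusted p of 0.35 over all genes, while an exact two-sided permutation of the mice gave p = 0.029, the smallest that 4 mice against 4 allow. The adjusted limma p was 0.020 with the intensity trend and 0.034 with the offset of 64. Under 17 other settings and left-out mice the unadjusted limma p of Grb14 was 6.1e-05 to 0.0047.

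The other genes of the brake list past the threshold were Trib1 and Trib2, pseudokinases related to Trib3. They were listed for this kinship, and whether they hold back insulin signalling in these livers was not tested. Trib1 was 9.18, 9.52, 9.94 and 9.78 in the HFD mice and 9.99, 10.21, 10.02 and 10.16 in the HFD+WBM mice, 1.40-fold higher with no overlap (limma p = 0.026 before adjustment, adjusted p = 0.40, exact permutation p = 0.029). Trib2 was 6.94 to 7.49 and 6.59 to 7.12, 1.35-fold lower with overlap (limma p = 0.046, adjusted p = 0.42, exact permutation p = 0.086). Trib1 did not pass p under 0.05 without replicate 1 or 2 of HFD or replicate 2 or 4 of HFD+WBM, nor Trib2 without replicate 3 or 4 of HFD or replicate 2, 3 or 4 of HFD+WBM. The phosphatases Ptpn1 (log2 fold change -0.05, standard error 0.20) and Ptpn2 (-0.22, standard error 0.19) and the suppressors Socs1 (0.26, standard error 0.24) and Socs3 (0.17, standard error 0.20) did not pass. Grb10, the closest relative of Grb14, was lower by estimate (log2 fold change -0.52, standard error 0.28) but did not pass; these 5 were named after their values were seen.

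None of 8 proximal adaptors and partners passed, among them Grb2, Gab1, Shc1 and Ptpn11. Of 24 genes of the PI3-kinase, AKT and mTOR arm 2 were higher and 2 lower. Foxo4, a further FOXO factor, was 7.77, 7.90, 8.13 and 7.98 in the HFD mice and 8.36, 8.66, 8.36 and 8.40 in the HFD+WBM mice, 1.41-fold higher with no overlap (limma p = 0.0078, adjusted p = 0.37, exact permutation p = 0.029), and it passed without any single mouse. Tsc2, which holds back mTOR complex 1, was 8.60 to 9.05 and 9.09 to 9.38, 1.28-fold higher (limma p = 0.046, adjusted p = 0.42, exact permutation p = 0.029), and passed in 1 of the 8 leave-one-out fits, that without HFD replicate 4.
Pik3r3, a regulatory PI3-kinase subunit, was 5.93 to 6.53 and 5.23 to 5.91, 1.46-fold lower (limma p = 0.027, adjusted p = 0.40, exact permutation p = 0.029). Mlst8, a subunit of both mTOR complexes, was 6.49 to 7.17 and 5.90 to 6.50, 1.43-fold lower (limma p = 0.032, adjusted p = 0.40, exact permutation p = 0.057). Both are dim genes, Pik3r3 did not pass without replicate 1 or 2 of HFD or 3 of HFD+WBM, and Mlst8 did not pass without replicate 1 or 2 of HFD or 1 or 3 of HFD+WBM.

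**Figure D3:**
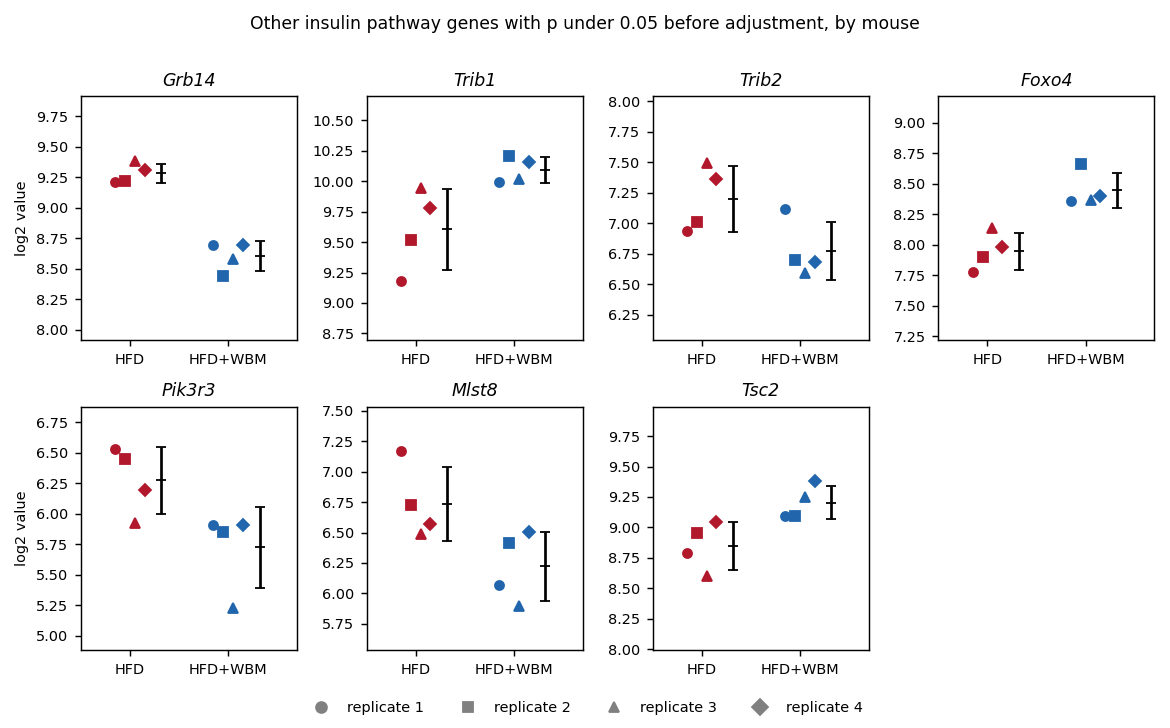
Log2 value of the 7 other insulin pathway genes with p under 0.05 before adjustment by mouse (red for HFD, blue for HFD+WBM), with bars for mean ± SD (n = 4); every panel spans 2 log2 units. Grb14 has narrow groups and the widest gap between them, and Mlst8 and Trib2 overlap.

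FOXO1 targets were then compared between the diets. Of 19 measured targets other than Irs2 and Insr, 1 was lower at p under 0.05 before adjustment (5.26%, against 6.90% of all genes), none was higher (4.85% of all genes) and 18 did not pass, and their median log2 fold change was -0.01. The one that passed was Cdkn1b, the cell cycle inhibitor p27, at 8.39 to 8.62 in the HFD mice and 7.99 to 8.22 in the HFD+WBM mice, 1.27-fold lower (limma p = 0.030, adjusted p = 0.40, exact permutation p = 0.029). It did not pass when replicate 2 of HFD or replicate 1 or 4 of HFD+WBM was left out. The count of targets past the threshold moved with the mice: it was 0 without HFD+WBM replicate 4, 2 when replicate 2 of HFD or replicate 1 of HFD+WBM was left out, 3 without HFD replicate 1, all lower, and 5 without HFD replicate 4, of which 4 were higher. With quantile normalization it was 3, of which 2 were higher, and with median centring 1 was higher and 1 lower. These counts have no share of all genes at the same setting beside them.
Igfbp1, which encodes a secreted binding protein of insulin-like growth factors, was 8.96, 11.59, 10.93 and 12.03 (log2 value) in HFD replicates 1 to 4 and 12.11, 12.12, 11.59 and 12.15 in HFD+WBM replicates 1 to 4. HFD replicate 1 was far below the other mice, and the HFD mice spread over more than 3 log2 units. The log2 fold change was 1.12 (standard error 0.56; limma p = 0.076, adjusted p = 0.46), and the exact permutation p was 0.057. Without HFD replicate 1 it was 0.48 (standard error 0.28), and without HFD replicate 4 it was larger and passed before adjustment.
Pck1, the enzyme that commits carbon to gluconeogenesis, was lowest in HFD replicate 1 (12.22), with the remaining HFD mice at 12.90 to 13.22 and the HFD+WBM mice at 13.19 to 13.53. Its log2 fold change of 0.51 (standard error 0.23) missed the threshold (limma p = 0.0502, adjusted p = 0.43, exact permutation p = 0.057). It was 0.29 without HFD replicate 1, and it passed before adjustment without HFD replicate 2 or 4. G6pc, the last enzyme of the same pathway, was 12.08 to 12.79 and 11.82 to 12.72, with a log2 fold change of -0.11 (standard error 0.25) that was 0.11 without HFD+WBM replicate 3. For Ppargc1a, a coactivator of fasting genes, the log2 fold change was 0.38, with standard error 0.25. For Pdk4, a kinase that spares glucose, it was 0.19 (standard error 0.71), and neither gene passed. Without HFD replicate 1 these were 0.18 and -0.43, and Ppargc1a passed before adjustment without HFD replicate 4 (0.56). For Srebf1, which insulin raises in liver and which encodes SREBP1, it was -0.50 (standard error 0.33), which did not pass either (exact permutation p = 0.23), though it passed before adjustment without HFD+WBM replicate 1 (-0.82).

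Within the diets, Irs2 was related to the FOXO1 targets mouse by mouse. Irs2 separated the diets, so a correlation over all 8 mice would restate that difference, and deviations from the diet means were used instead, with an exact permutation of the mice within each diet (576 permutations, two-sided). In all 20 relations were computed, Irs2 with Insr and with each of the 19 targets. Pearson's r was above 0 in 17 of the 20, with a median of 0.26. For Pdk4 Pearson's r was 0.87 (exact permutation p = 0.023, adjusted p = 0.28 over the 20 relations) and Spearman's rho 0.79 (p = 0.076, adjusted p = 0.81). For Igfbp1 r was 0.84 (exact permutation p = 0.028, adjusted p = 0.28) and rho 0.57 (p = 0.25, adjusted p = 0.81). No other relation passed p under 0.05 before adjustment, and none passed after it.
The relations rested on few mice. HFD replicate 1 was below the mean of its diet for 15 of the 19 targets and the lowest HFD mouse for 13. HFD replicate 1 and HFD+WBM replicate 3 were the 2 mice whose Irs2 deviation lay farthest from the median deviation. Without them r was 0.48 for Pdk4 and 0.39 for Igfbp1, the median over the 20 relations was 0.06 and 11 were above 0. These r still used deviations from diet means that include the 2 mice, so they are not purely within-diet values. Where a single mouse was left out below, the diet means were taken anew. Of the 20, 1 passed p under 0.05 without HFD replicate 2, HFD replicate 4 or HFD+WBM replicate 3. Without HFD replicate 1 alone none passed, and r was 0.72 for Pdk4 (exact permutation p = 0.11) and 0.57 for Igfbp1 (exact permutation p = 0.19). Over all 210 pairs of Irs2, Insr and the 19 targets the median r was 0.19, and it was -0.03 without HFD replicate 1. Insr had no such relation with Irs2 (r = -0.05, exact permutation p = 0.93).

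**Figure D4:**
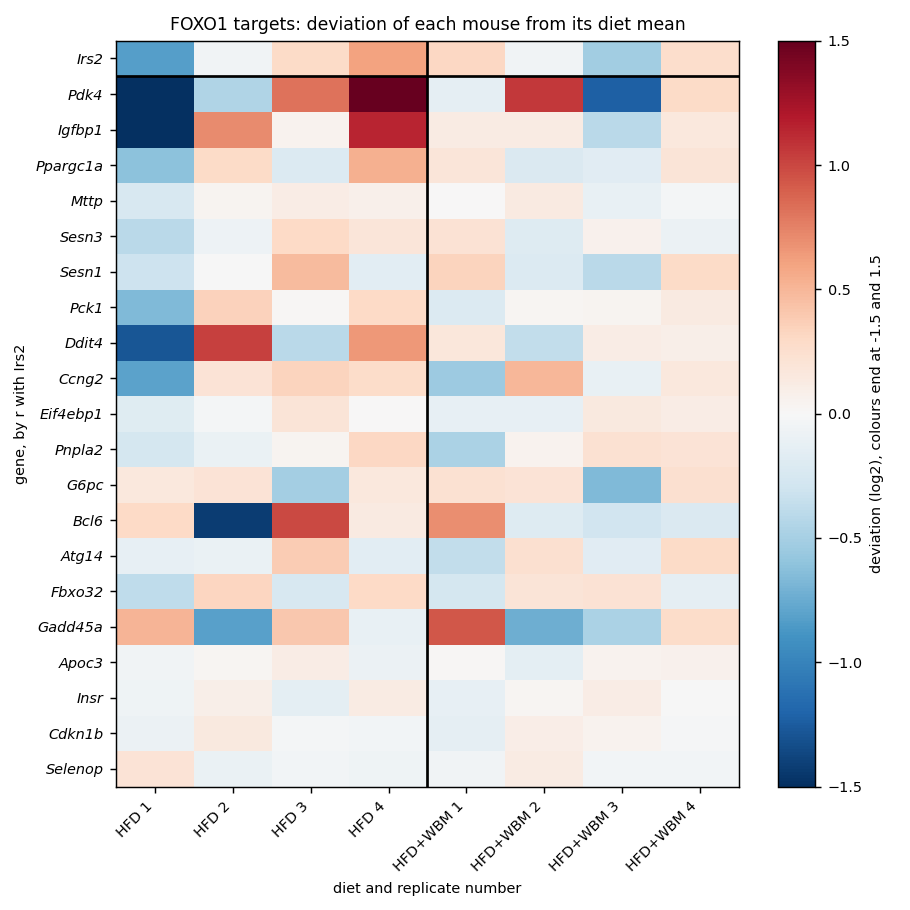
Deviation of each mouse (columns, 4 HFD and 4 HFD+WBM) from the mean of its diet in log2 units for Irs2 and, below the line, Insr and the 19 FOXO1 targets, ordered by Pearson's r with Irs2; red is above the mean and blue below it. HFD replicate 1 is blue for 15 of the 19 targets, most deeply for Pdk4 and Igfbp1.

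**Figure D5:**
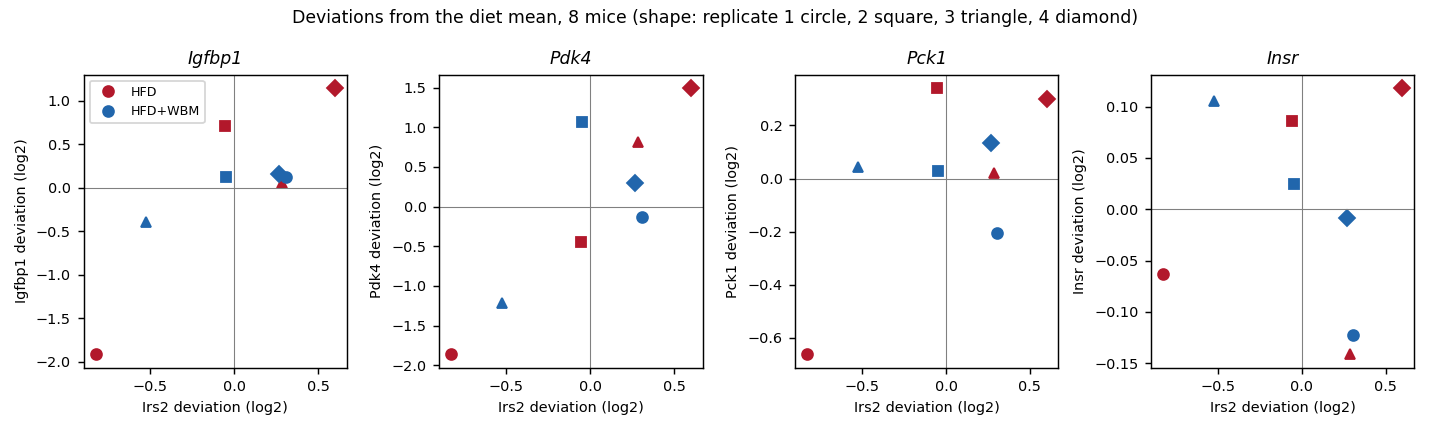
Deviation of Irs2 (x axis, log2) against that of Igfbp1, Pdk4, Pck1 and Insr (y axes, log2, each with its own scale) in 8 mice (red for HFD, blue for HFD+WBM). HFD replicate 1, the red circle, lies at the lower left for Igfbp1, Pdk4 and Pck1, and without it r with Irs2 was 0.57 for Igfbp1, 0.72 for Pdk4 and -0.24 for Pck1.

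Genes of the other arms that reach Irs2 and Trib3 were examined next. In fasting, glucagon acts through CREB and its coactivator CRTC2, which also raise Irs2. Of 9 targets of CREB and CRTC2, Sik1, a kinase that feeds back on CRTC2, was higher by 0.85 on the log2 scale (standard error 0.33, limma p = 0.027, adjusted p = 0.40, exact permutation p = 0.11), at 9.43 to 10.49 in the HFD mice and 10.22 to 11.47 in the HFD+WBM mice. Per1, a clock gene, was 8.11 to 9.37 and 9.20 to 9.59, 1.58-fold higher (limma p = 0.044, adjusted p = 0.41, exact permutation p = 0.057). Both had overlapping groups, and neither passed without replicate 1 or 3 of HFD or replicate 4 of HFD+WBM. Sik1 also did not pass without replicate 1 of HFD+WBM, nor Per1 without replicate 2 or 3 of it. All 9 estimates were above 0, as were 10110 of 19938 over all genes, and the median log2 fold change was 0.31. Nr4a1, an early gene of this arm named after its value was seen, was lowest in HFD replicate 1 (7.36), with the remaining HFD mice at 8.42 to 10.50 and the HFD+WBM mice at 8.97 to 10.61, and did not pass, though it did without HFD replicate 4.
Of 9 genes of the ATF4 and CHOP stress arm, which drives Trib3, Phgdh, the first enzyme of serine synthesis, was 4.50 to 4.91 in the HFD mice and 5.14 to 5.51 in the HFD+WBM mice, 1.60-fold higher (limma p = 0.0017, adjusted p = 0.36, exact permutation p = 0.029). Sesn2, a sestrin, was 5.82 to 7.08 and 7.10 to 7.53, 1.63-fold higher (limma p = 0.024, adjusted p = 0.39, exact permutation p = 0.029). The groups of both genes did not overlap, and Sesn2 did not pass without HFD+WBM replicate 1 or 2. Phgdh and Sesn2 are dim genes, with HFD means of 4.69 and 6.59. With an offset of 64 the log2 fold change of Phgdh was 0.23 in place of 0.67 and did not pass p under 0.05 before adjustment, nor did it with the intensity trend. Atf4 itself differed by -0.05 on the log2 scale (standard error 0.16) and Ddit3, which encodes CHOP, by 0.39 (standard error 0.25), and neither passed; both were named after their values were seen. In this list 7 estimates were above 0 and 2 below, among them Fgf21 (log2 fold change -0.60, standard error 0.30), named after its value was seen. Of the 18 genes of both arms 4 passed, all higher (22.2%). Of all genes 4.85% were higher at this threshold, and 11.7% passed in either direction. Without HFD replicate 1 the count was 2.

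The genes whose values lay closest to those of Irs2 over the 8 arrays, among 9968 other genes brighter than the median, were Rlf (Pearson's r = 0.96), Hand2 (r = 0.96), Btg1 (r = 0.96), Trp53inp1 (r = 0.96) and F630042J09Rik (r = 0.96). Rlf and Hand2 encode transcription factors, and Btg1 and Trp53inp1 encode regulators of growth and stress. Their deviations from the diet means had r of 0.90, 0.89, 0.96, 0.91 and 0.85 with those of Irs2, in the same order. The ranking picks the highest of many values over 8 arrays and is a description. Trp53inp1, the one with the largest diet difference of these 5, was 10.90, 11.80, 11.83 and 12.24 (log2 value) in the HFD mice and 12.48, 12.64, 12.28 and 12.83 in the HFD+WBM mice, so that HFD replicate 1 was again the lowest mouse. None of these 5 genes was on the list of FOXO1 targets used here, which need not hold every FOXO1 target. Among the listed FOXO1 targets the nearest in this ranking was Igfbp1 (r = 0.85) and among the members Foxo1 (r = 0.83). The r over the 8 arrays holds the diet difference. With deviations from the diet means r was 0.84 for Igfbp1, below that of Pdk4 (0.87), and 0.45 for Foxo1, below that of Foxo3 (0.52).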

How the data were processed

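Liver RNA of 8 OVX mice, 4 fed with HFD and 4 with HFD+WBM, was measured, and the sample titles gave the diet and number of each mouse. The titles number separate mice, so the replicates are taken as animals. Background correction, normalization and summary to 28944 probe sets were run by the authors with IterPLIER (Affymetrix Power Tools 1.8.6), and log2 values were deposited. No genome build, offset before the log or detection call is given in the sources used here, so low values carry no background limit. Probe sets naming 1 gene (21789) were named from the platform annotation, updated by gene number to GRCm38.p6 names; 1621 name several genes and 5534 are not named in it. The brightest probe set stood for a gene (19938 genes).

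A linear model with a diet term alone was fitted to all genes in limma 3.58.1 (lmFit, eBayes; R 4.3.3). Adjusted p-values are Benjamini-Hochberg values over all genes, and the fit was tested on simulated data. The members and lists were chosen with earlier results of these data known. Named were the members, Srebf1, the 5 genes most like Irs2, and FOXO1 targets past p under 0.05 with Igfbp1, G6pc, Pck1, Pdk4 and Ppargc1a. Each other pathway or regulator list gave up to 4 genes with the smallest p under 0.05. Cell type markers were counted and not named. Grb2, Gab1, Shc1 and Ptpn11 were named outside this rule, as were genes marked as named after their values were seen. Some listed genes are not analysed here. Alternatives were median centring, quantile normalization, offsets of 16 and 64 before the log, all probe sets of a gene, the brightest 50% of genes, an intensity trend in the prior variance, variances without moderation, a replicate block and leaving out each mouse. The number of arrays limits the precision.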

Additional observations from a re-analysis of the deposited data

Results flagged for a closer look

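Only the genes named in the text by the rule for named genes were searched. In groups of 4 mice, single livers lay apart from the other 3 of their diet by Dixon's criterion at 95%, which chance meets in about 1 of 20 groups. Every gene was searched in both diets, so some of the livers below are to be met by chance alone. Among the 10 insulin signalling genes this was Pik3r1 in HFD replicate 1 (10.73, above the others). Among the other pathway genes searched it was Pik3r3 in HFD+WBM replicate 3 (5.23, below) and Foxo4 in HFD+WBM replicate 2 (8.66, above). Among the 6 FOXO1 targets searched it was Igfbp1 in HFD+WBM replicate 3 (11.59, below) and G6pc in replicate 3 of both diets (12.08 in HFD and 11.82 in HFD+WBM, both below). Rlf, the gene most like Irs2, was apart in HFD replicate 1 (7.79, below).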

How the results depend on the processing

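The Irs2 difference (log2 1.35) was 1.18 to 1.38 under the other settings and 1.07 to 1.55 with a mouse left out. Of the other members, only Irs1 moved by more than its SD between mice, with the mean of both probe sets (0.13). The count of other insulin pathway genes at p under 0.05 (7) was 11 without moderated variances and 3 to 6 with a mouse left out. The count of FOXO1 targets (1) was 2 with median centring, 3 with quantile normalization, 4 and 5 with offsets of 16 and 64, 0 with all probe sets of a gene, 5 with the brightest 50% of genes, 6 with an intensity trend in the prior variance, 2 without moderated variances, and 0 to 5 with a mouse left out. The count of CREB, CRTC2, ATF4 and CHOP genes (4; alternatives added after seeing the data) was 7 with an offset of 64, 8 with an intensity trend in the prior variance, 2 without moderated variances, and 2 to 6 with a mouse left out. The count of Irs2 relations (2) was 2 under each other scale or offset and 0 to 3 with a mouse left out. The count of all genes at an adjusted p under 0.05 (0) was 2 with an offset of 16, 80 with one of 64, 19 among the brightest 50% of genes and 139 with the intensity trend. The cause was not tested. Shares of all genes at p under 0.05 before adjustment are given for the main fit only. The list counts under other settings therefore have no matching share, and no change in a list is read from them. Same-numbered mice of the 2 diets did not deviate together (r of -0.12 to -0.02), so the numbers are taken as names only; with the replicate block the pathway count was 4, the FOXO1 target count 2 and the CREB and ATF4 count 5.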
